A study of Mus musculus with 6 samples.

Results

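Fibroblast growth factor (FGF) signaling was examined through 10 genes of its ligands, receptors, feedback inhibitors and target factors. The members are the receptors Fgfr1, Fgfr2 and Fgfr3, the ligands Fgf1 and Fgf2, the inhibitors Spry1, Spry2 and Dusp6, and the transcription factors Etv4 and Etv5. They were chosen by name, and all 16 probe sets whose array annotation gives one of these symbols and no other gene were taken, of 22626 probe sets in all. Fgfr1, Fgfr2, Fgfr3, Fgf1, Spry2 and Etv5 had more than 1 probe set, and the other 4 genes had 1 each. RNA came from whole newborn eyeballs of mice on a mixed background at postnatal day 1, with 3 wild-type and 3 Brg1 conditional knockout (cKO) samples and 1 array per sample. In Brg1 cKO pups both floxed alleles of Brg1, whose product is the SWI/SNF ATPase and whose official symbol is Smarca4, are deleted by the Le-Cre transgene, which the Pax6 ectodermal enhancer drives in the head surface ectoderm that forms lens, cornea and eyelid skin. The labels and the study's array methods call the controls wild type, where the study elsewhere states that it took Brg1 flox/flox mice as controls, so whether these pups carried floxed alleles is not settled, and no group here carries Le-Cre alone. Each sample was 1 eyeball by the study's methods, and the study states that deletion was often incomplete and the eye defects variable.

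FGFs bind receptor tyrosine kinases together with heparan sulfate and switch on the Ras, MEK and ERK kinase cascade. In the lens, FGFs from the vitreous and the surrounding ocular tissues drive epithelial cells at the equator to leave the cell cycle, elongate and become fiber cells, and the receptors act redundantly there. ERK activity in turn induces Sprouty proteins and the phosphatase Dusp6, which damp the signal, and the ETS factors Etv4 and Etv5, so that these genes are commonly read as reporters of ERK signaling. Retina, cornea, conjunctiva, muscle and vessels of the eyeball use the same genes.

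Fgfr2 and Fgfr3 had lower means in Brg1 cKO than in wild-type eyeballs, and so did the dimmer Spry2 set, at -0.85. Spry1, Dusp6, Etv4, Etv5 and the brighter probe set of Spry2 differed by less than 0.25 log2 units. Dusp6 (-0.62 to 0.26) and the brighter Spry2 set (-0.58 to 0.29) had 95% intervals that overlapped the brighter Fgfr2 set's (-1.23 to -0.32). The Spry1 interval (-0.21 to 0.59) did not overlap it. That of the Fgfr3 set 1421841_at (-2.09 to -0.76) lay below those of Dusp6, Spry1 and the brighter Spry2 set. Intervals of the dimmer Fgfr3 set and of both Fgfr1 sets overlapped those of all 3. Whether receptors and feedback genes differ from each other was not tested. None of the differences between genotypes passed the test across all probe sets. At an adjusted p under 0.05 in limma, which fits every probe set and adjusts by Benjamini-Hochberg over all of them, 0 of 16 member probe sets were called, against 115 of 22626 probe sets (0.508%) on the array. At an unadjusted p under 0.05, 4 of 16 were lower and 0 higher, where 8.4% of all probe sets differed and 3.87% were lower. Only the same 4 probe sets, of Fgfr2, Fgfr3 and Spry2, had all 3 Brg1 cKO values below all 3 wild-type values. Of all probe sets, 6.44% had this pattern, and 3111 of 22626 had groups without overlap in either direction. By template matching as computed here, a correlation with a genotype template at p under 0.05 and a fold over 1.5 with no adjustment, these 4 were again selected, beside 1.64% of all probe sets that were selected as lower. These readings use the same 6 values of each probe set, so selection by each of them is not separate support. The 2 Fgfr2 sets correlated at 0.96 over the 6 arrays. Per gene, by the brightest probe set, 2 of 10 had an unadjusted limma p under 0.05, beside 9.3% of all genes. Groups without overlap in either direction were likewise found for 2 of 10, beside 1839 of 12393 genes. Values of the members are RMA intensities in log2 units throughout, and differences, taken as Brg1 cKO minus wild type, come with the limma model's standard error (SE) and 95% interval. The median difference over the 10 genes, each by its brightest probe set, was -0.16, and it was 0.02 over all 12393 genes.

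**Figure D1:**
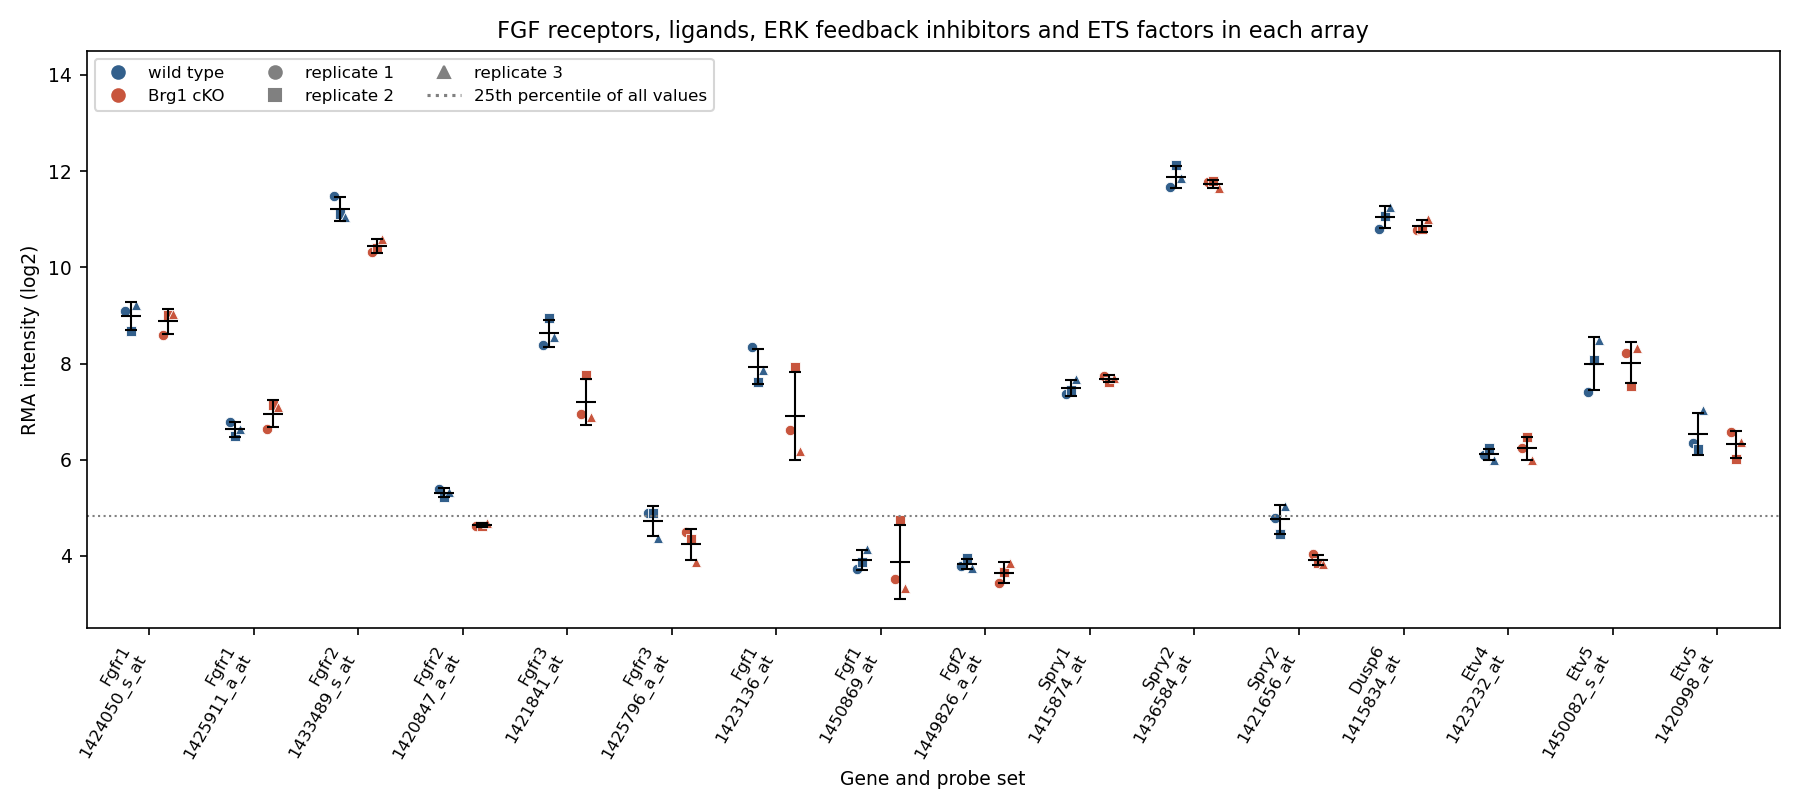
RMA intensity (log2, vertical axis) of the 16 probe sets (horizontal axis, gene and probe set name), with blue points for 3 wild-type and red points for 3 Brg1 cKO arrays, marker shapes for replicates, and black bars for mean and SD. Both Fgfr2 probe sets, 1 Fgfr3 and 1 Spry2 probe set show all Brg1 cKO points below the wild-type points, and the dotted line at 4.84 marks the low end of the scale.

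Of the receptors, Fgfr2 was lower in Brg1 cKO by both of its probe sets, without passing the adjusted threshold. Fgfr2 encodes the receptor whose epithelial splice form serves FGF7 and FGF10 and which the lens and lacrimal gland use. Its brighter probe set, 1433489_s_at, read 11.49, 11.10 and 11.04 in wild type, against 10.31, 10.41 and 10.59 in Brg1 cKO. Values of a genotype are listed in the order of its replicate numbers, here and below. The highest Brg1 cKO value thus lay below the lowest wild-type value. The difference was -0.77 (SE 0.19, interval -1.23 to -0.32), or 1.71-fold lower (limma adjusted p = 0.243). The dimmer probe set, 1420847_a_at, read 5.39, 5.22 and 5.33 in wild type, against 4.62, 4.63 and 4.69 in Brg1 cKO. Again the groups did not overlap, at a difference of -0.67 (SE 0.16, limma adjusted p = 0.204). The Brg1 cKO values of this set lie below the 25th percentile of all values on the arrays, log2 4.84, read here as the low end of the scale, and an offset of 16 intensity units, which damps changes of dim sets, reduced the difference to -0.44. Both probe sets gave p = 0.1 in the exact two-sided permutation test, the smallest value that 3 arrays against 3 allow. Over the alternative fits of the brighter probe set the difference lay between -0.86 and -0.63, and its adjusted p never fell below 0.141.

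Fgfr3, a receptor found in lens fibers, neural retina and glia, showed the largest difference of the members. Probe set 1421841_at read 8.38, 8.94 and 8.55 in wild type, against 6.96, 7.76 and 6.88 in Brg1 cKO. Brg1 cKO replicate 2 was the highest of its group, and still below every wild-type array. The difference was -1.43 (SE 0.28, interval -2.09 to -0.76), or 2.69-fold lower (limma adjusted p = 0.126). Whether this set passed the threshold depended on the fit: leaving out Brg1 cKO replicate 2 gave -1.71 and limma adjusted p = 0.0278. With array weights, which gave that replicate the lowest weight, adjusted p was 0.0489, and over all alternatives it reached from 0.0278 to 0.394. The dimmer probe set, 1425796_a_at, differed by -0.48 (SE 0.24, adjusted p = 0.682). It read 4.90, 4.90 and 4.37 in wild type, against 4.50, 4.35 and 3.88 in Brg1 cKO, so that groups overlapped. These values lie about the low end of the scale.

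Fgfr1, the most widely expressed receptor of the family, did not differ in one direction. The brighter probe set, 1424050_s_at, read 9.08, 8.67 and 9.22 in wild type, against 8.58, 9.01 and 9.03 in Brg1 cKO. These ranges overlapped, and the difference was -0.11 (SE 0.22, interval -0.64 to 0.41, limma adjusted p = 0.929). The dimmer probe set, 1425911_a_at, read 6.79, 6.48 and 6.63 in wild type, against 6.64, 7.13 and 7.10 in Brg1 cKO. Its difference was of the opposite sign, 0.32 (SE 0.20, interval -0.15 to 0.80, adjusted p = 0.758). In Affymetrix naming, a set ending in _s_at can share probes with transcripts of other genes, which holds for the brighter sets of Fgfr1, Fgfr2 and Etv5.

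Of the ligands, Fgf1, which binds all FGF receptors and lacks a secretion signal, had the widest spread among Brg1 cKO eyeballs. Probe set 1423136_at read 8.34, 7.61 and 7.86 in wild type, against 6.61, 7.93 and 6.17 in Brg1 cKO. Brg1 cKO replicate 2 lay within the wild-type range and the other Brg1 cKO values lay below it, with an SD of 0.91 in Brg1 cKO and 0.37 in wild type. The difference was -1.03 (SE 0.45, interval -2.08 to 0.02, limma adjusted p = 0.599). It was -1.54 without Brg1 cKO replicate 2 (adjusted p = 0.087) and -0.67 without Brg1 cKO replicate 3. The other Fgf1 probe set, 1450869_at, read from 3.72 to 4.14 in wild type and from 3.34 to 4.75 in Brg1 cKO, at the low end of the scale, with a difference of -0.04 (SE 0.37). Replicate 2 was again the highest Brg1 cKO array. Fgf2, basic FGF, read 3.80, 3.95 and 3.74 in wild type, against 3.44, 3.66 and 3.86 in Brg1 cKO, all at the low end. The difference was -0.18 (SE 0.18, interval -0.60 to 0.25), and at this level a change in Fgf2 RNA may not be detectable.

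Of the feedback inhibitors, Spry1, Dusp6 and the bright probe set of Spry2 gave small differences, with intervals that include 0. Spry1, a Sprouty inhibitor of the Ras pathway, read 7.36, 7.46 and 7.68 in wild type, against 7.74, 7.62 and 7.70 in Brg1 cKO. The difference was 0.19 (SE 0.17), and its interval, -0.21 to 0.59, left out falls of more than 1.16-fold. Dusp6, the cytoplasmic phosphatase that inactivates ERK, read 10.80, 11.06 and 11.25 in wild type, against 10.78, 10.79 and 11.00 in Brg1 cKO. With values overlapping, the difference was -0.18 (SE 0.19, interval -0.62 to 0.26), which left out falls of more than 1.54-fold. Limma adjusted p-values were 0.833 for Spry1 and 0.856 for Dusp6.

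The probe sets of Spry2 disagreed. The bright one, 1436584_at, read 11.66, 12.12 and 11.86 in wild type, against 11.78, 11.79 and 11.64 in Brg1 cKO, a difference of -0.15 (SE 0.18, interval -0.58 to 0.29, adjusted p = 0.886). The dim one, 1421656_at, read 4.78, 4.45 and 5.05 in wild type, against 4.04, 3.86 and 3.84 in Brg1 cKO. All 3 Brg1 cKO values of this dim set lay below the wild-type values, and the difference was -0.85 (SE 0.20, interval -1.32 to -0.37, limma adjusted p = 0.216). Both group means lie below the 25th percentile of all values, and with the offset of 16 its difference was -0.48. The sources used here do not give which parts of the Spry2 transcript each set covers.

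The ETS factors Etv4 and Etv5 belong to the PEA3 group, which ERK signaling induces. Etv4 read 6.10, 6.24 and 5.99 in wild type, against 6.25, 6.47 and 6.0 in Brg1 cKO, a difference of 0.13 (SE 0.19, interval -0.31 to 0.57, limma adjusted p = 0.905). Etv5 varied more. Its brighter probe set, 1450082_s_at, read 7.41, 8.08 and 8.49 in wild type, against 8.21, 7.53 and 8.31 in Brg1 cKO, and the dimmer one, 1420998_at, 6.36, 6.22 and 7.03 against 6.57, 6.01 and 6.38. The values of both sets overlapped between genotypes, and the differences were 0.02 (SE 0.33) and -0.22 (SE 0.27). The interval of the brighter set, -0.76 to 0.80, is wide enough to hold a fall of 1.69-fold and a rise of 1.75-fold, so a change of moderate size was not detectable with these arrays. The sign of the difference of Etv5 and of Fgfr1 depended on which probe sets were used, since the mean of both sets gave -0.10 for Etv5 and 0.10 for Fgfr1, against 0.02 and -0.11 from the brighter set.

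**Figure D2:**
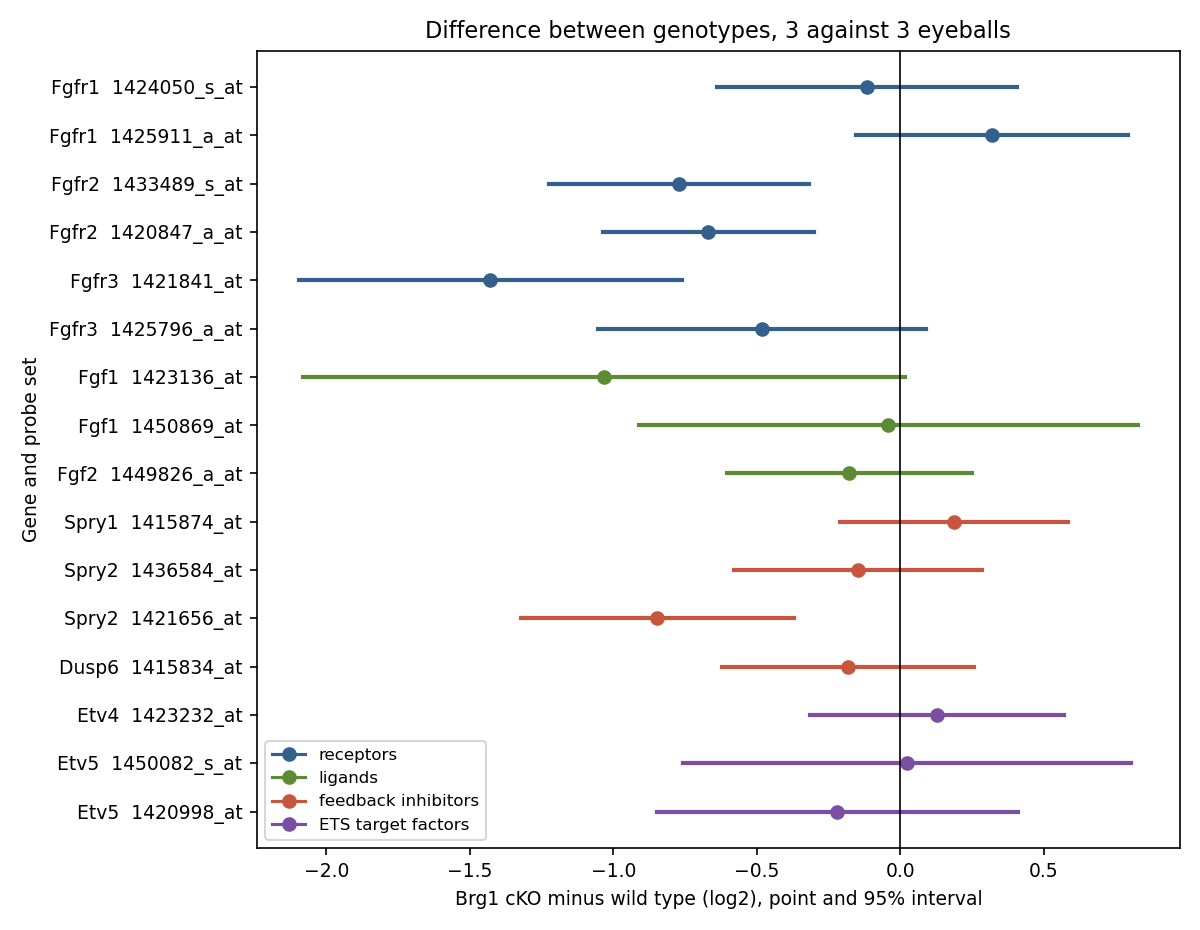
Difference between Brg1 cKO and wild type (log2, horizontal axis) for each probe set (vertical axis), with points for the limma estimate, lines for the 95% interval, and colors for the role of the gene. Intervals of both Fgfr2 sets, 1 Fgfr3 set and the dim Spry2 set lie below 0, and those of the other 12 sets include 0.

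The start regions of the genes whose groups did not overlap are shown to compare their base composition. RefSeq's promoter table (build GRCm38.p6), which spans 250 bases before to 50 bases after each start, held 9 promoters of 7 members; Fgfr1, Fgf1 and Etv4 were not among them. The 100 bases before the start are printed in the sense of the gene with CpG dinucleotides in capitals, for Fgfr2 on the minus strand at chr7:130266809-130266908, for the upstream start of Fgfr3 on the plus strand at chr5:33721624-33721723 and for Spry2 on the minus strand at chr14:105896820-105896919.
Fgfr2: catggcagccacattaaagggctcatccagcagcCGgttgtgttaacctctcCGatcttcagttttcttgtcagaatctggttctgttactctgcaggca
Fgfr3: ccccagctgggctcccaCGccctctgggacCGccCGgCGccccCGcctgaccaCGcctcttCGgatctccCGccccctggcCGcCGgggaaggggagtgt
Spry2: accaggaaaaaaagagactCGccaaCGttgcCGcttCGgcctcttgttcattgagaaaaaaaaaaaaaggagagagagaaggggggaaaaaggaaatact
These stretches hold 2, 10 and 4 CpGs, so their CpG content differs. Over the whole 300 bases, Fgfr2 had 4 CpGs, the fewest of the member promoters, while the others held from 19 to 37, and the median over all 32851 promoters was 7. The ETS motif CCGGAAGT and the AP-1 motif TGANTCA, searched on both strands, occurred in 0 of the 9 member promoters and in 3.89% and 7.81% of all promoters. The genes, the stretches and their length were chosen after the values were seen.

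Markers of lens and surface epithelium differed between genotypes in the same arrays. Of 21 measured lens fiber genes, mostly crystallins and fiber membrane and filament genes, all had lower means in Brg1 cKO, 2 past the threshold, Gja3 and Caprin2, and the median difference was -2.45. Their mean level was log2 12.1 to 12.4 in wild-type arrays and 9.68, 11.1 and 8.45 in Brg1 cKO replicates 1 to 3. Lens transcripts were still present in Brg1 cKO eyeballs: Cryaa, alpha A-crystallin, read 12.43, 13.41 and 12.27 in Brg1 cKO, where wild-type arrays read 13.93, 14.01 and 13.97. Of 9 surface epithelium genes, 8 had lower means and 3 passed, Krt12, Ehf and Elf5, with a mean level of 9.28 to 9.79 in wild type, against 7.06, 8.05 and 8.09 in Brg1 cKO. In whole eyeballs, fewer cells of a type and less RNA per cell cannot be told apart.

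Set against these lists, the members fell into different patterns across the Brg1 cKO arrays. The lens fiber list deviated from wild type by -2.43, -0.88 and -3.87 in the successive Brg1 cKO arrays. Fgfr3 (1421841_at) lay at -1.67, -0.87 and -1.75 and Fgf1 (1423136_at) at -1.32, -0.01 and -1.76. Both sets were thus nearest to wild type in replicate 2 and farthest in replicate 3, as was the lens fiber list. The dimmer Fgfr3 set, at -0.22, -0.37 and -0.85, was nearest in replicate 1. The lens epithelium list, at -0.35, -0.02 and -0.12, was nearest in replicate 2 too. Replicate 2 was also farthest from wild type in the myeloid list, at 0.88, 1.84 and 1.06. Fgfr2 (1433489_s_at) lay at -0.90, -0.80 and -0.62, in the order of the surface epithelium list, which lay at -3.00, -1.61 and -0.90. The mesenchyme list, at -0.19, 0.09 and 0.12, had that order too. With 3 arrays such an order is a description and carries no test. Dusp6, at -0.26, -0.25 and -0.04, and the bright Spry2 set, at -0.10, -0.09 and -0.24, stayed within the deviations of single wild-type arrays from each other, which spanned -0.36 to 0.32 for Dusp6 and -0.33 to 0.36 for Spry2.

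Other cell types differed between the arrays as well. The 10 myeloid genes had higher means in Brg1 cKO, 1 of them past the threshold, with a mean level of 6.61 to 7.13 in wild type and 7.98 to 9.21 in Brg1 cKO. Of 14 neural retina genes 0 passed and 8 had higher means, with levels of 9.92 to 9.99 in wild type and 9.45 to 10.3 in Brg1 cKO. The 12 skeletal muscle genes ranged from 11.1 to 11.9 in wild type and from 10.7 to 12.2 in Brg1 cKO, with 0 past the threshold. Endothelium with 6 genes, mesenchyme with 8, pigment epithelium with 7 and erythroid cells with 3 likewise had 0 past it. Of 7 lens epithelium genes, 5 had lower means and Prox1 passed, at -1.82, while Foxe3 and Pitx3 differed by 0.05 and -0.19. The study counts Prox1 among genes implicated in lens differentiation, so it is not a marker of lens epithelium alone. At an unadjusted limma p under 0.05, 19 lens fiber genes, 6 surface epithelium genes and 2 lens epithelium genes were lower, and 9 myeloid genes and 1 surface epithelium gene, Krt14, were higher. At that level there was 1 gene each of neural retina, muscle and mesenchyme, and 0 of endothelium, pigment epithelium and erythroid cells. The part of any of these cell types in the differences of Fgfr2, Fgfr3, Fgf1 or Spry2 was not tested.

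**Figure D3:**
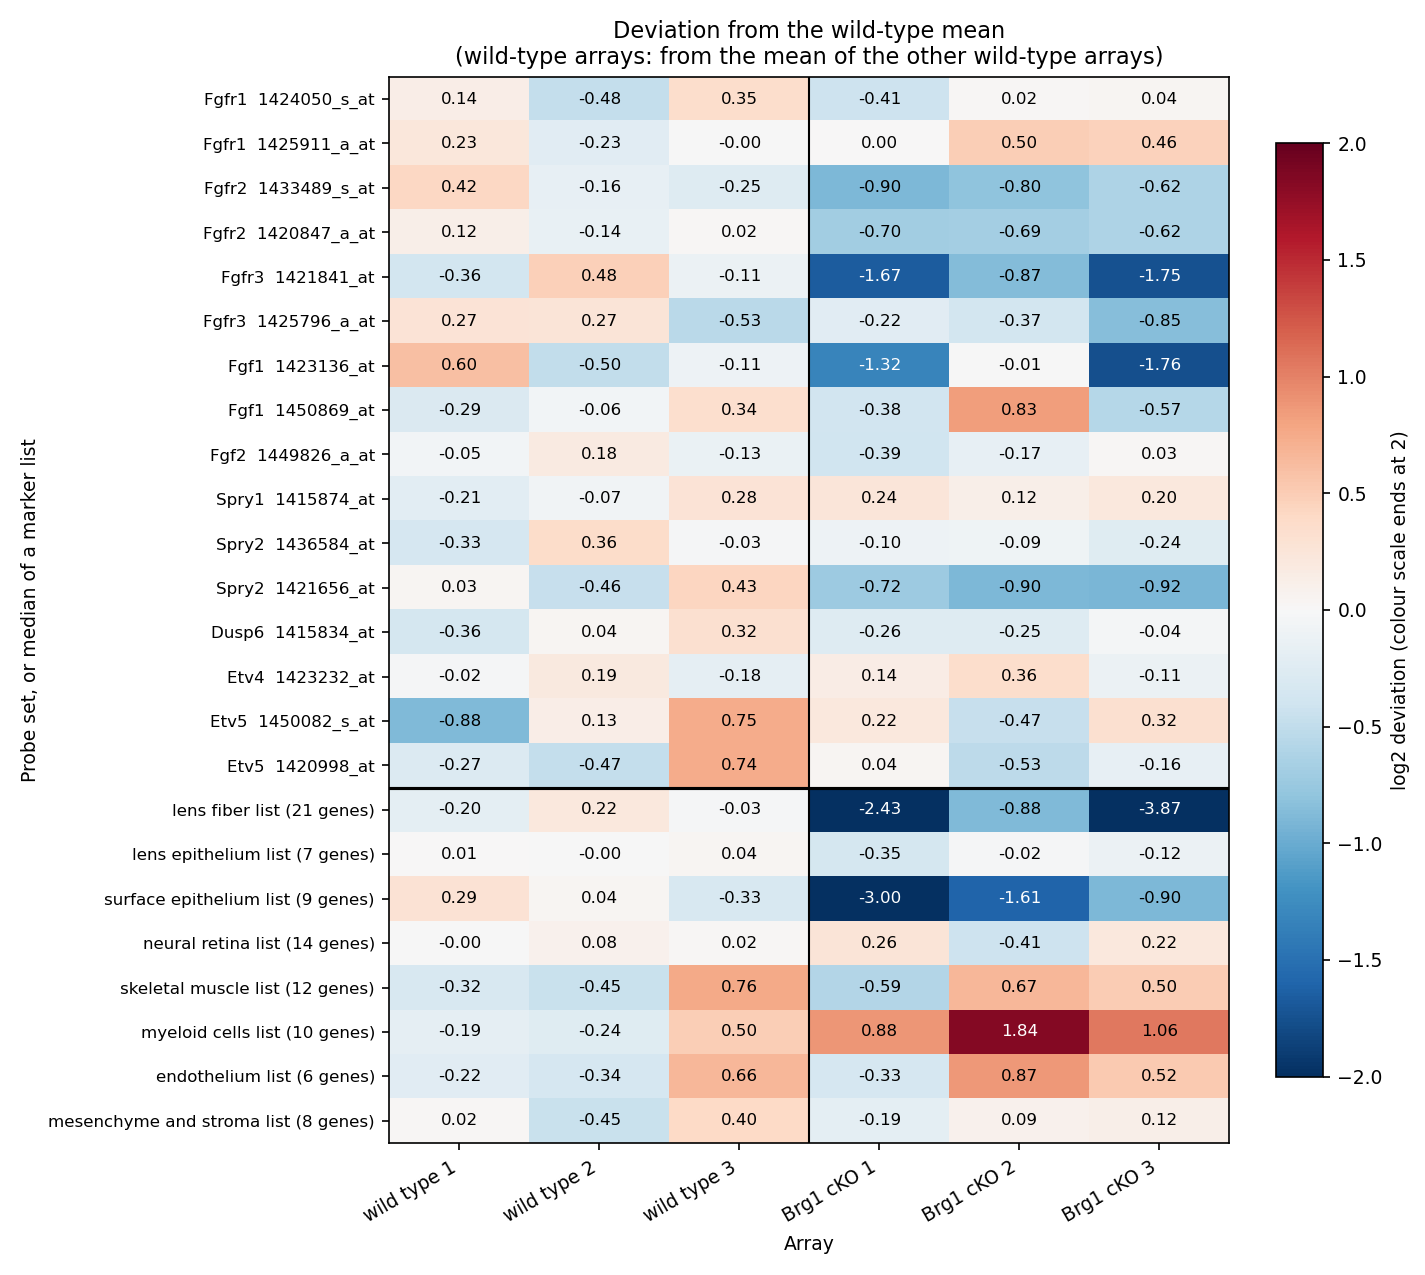
Deviation from the wild-type mean (log2, color and printed value) of each member probe set above the black line and of each marker list's median below it, with 1 column per array; each wild-type array is set against the remaining wild-type arrays. In Brg1 cKO replicates 1 to 3 the Fgfr3 set 1421841_at lies at -1.67, -0.87 and -1.75 and the lens fiber list at -2.43, -0.88 and -3.87.

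The arrays differed little in overall level, with median intensities from 169.1 to 185.5. Brg1 cKO replicate 2 stood apart, with a mean correlation of 0.962 with the wild-type arrays across probe sets, where the other Brg1 cKO arrays had 0.974 and 0.979. Smarca4, the deleted gene, differed by 0.18 (SE 0.19) and -0.70 (SE 0.30) by its probe sets, both short of the limma threshold with adjusted p = 0.866 and 0.598, and the sources used here do not give whether the sets lie in the deleted part. The sister gene Smarca2, whose product is Brm, differed by -0.05 (SE 0.25) and 0.16 (SE 0.24).

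The rest of the pathway was measured through 88 genes in 6 lists, and 0 of them passed the threshold in limma. Each gene taken by its brightest probe set, 7 of 88 had an unadjusted p under 0.05, 3 lower and 4 higher, where 9.3% of all genes did. Over all 160 probe sets of these genes, 12 (7.5%) had one, 4 lower and 8 higher, beside 8.4% of all probe sets, and 0 passed. Of 20 other genes of the FGF family, listed as ligands, 12 had lower and 8 higher means. Their median was -0.07 and their range -0.70 to 0.68. Fgf3, a secreted ligand, read 6.79, 6.64 and 6.52 in wild type, against 6.17, 6.04 and 5.65 in Brg1 cKO. Groups did not overlap, and the difference was -0.70 (SE 0.20, adjusted p = 0.328). Its other probe set differed by -0.33 (SE 0.23). Fgf15, a ligand made by the developing retina, differed by -0.54 (SE 0.22, adjusted p = 0.582), with groups overlapping.

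Of 12 further receptors and co-receptors, Fgfr4 came closest to the threshold of all pathway genes. Fgfr4 encodes the remaining signaling receptor of the family, which developing skeletal muscle uses. It read 4.28, 4.32 and 4.47 in wild type, against 5.63, 5.98 and 5.39 in Brg1 cKO. Every Brg1 cKO value was higher, by 1.31 on average (SE 0.20, limma adjusted p = 0.0533), from a wild-type mean at the low end of the scale. With array weights adjusted p was 0.0368, and over the other alternatives it ranged from 0.0508 to 0.27. The 4 other Fgfr4 probe sets differed by -0.06 to 0.26 at levels of 3.24 to 4.05, so that the difference rests on 1 set. Klb, the co-receptor beta-Klotho, differed by 0.32 (SE 0.22) at a similarly low level. The syndecans, glypicans and the other genes of this list lay between -0.20 and 0.21.

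Of 11 enzymes that build or trim heparan sulfate, the range was -0.20 to 0.29. Sulf2, an extracellular sulfatase, differed by 0.29 (SE 0.20) and Extl3, a chain-initiating glycosyltransferase, by 0.22 (SE 0.22). Among 16 adaptors and kinases of the cascade, 8 differences were positive and 8 negative. Map2k1, the ERK kinase MEK1, read 9.74, 10.18 and 10.16 in wild type, against 10.78, 11.07 and 10.60 in Brg1 cKO, a difference of 0.79 (SE 0.21, adjusted p = 0.275) with no overlap. Sos1, which loads Ras with GTP, differed by -0.60 (SE 0.22, adjusted p = 0.517) by its brightest set, and by -0.05 and -0.51 by the others.

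Of 13 further genes listed as ERK feedback, among them Spry4, Spred1 and Il17rd, differences lay between -0.35 and 0.49 with a median of -0.02. By their brightest set, 0 of them had an unadjusted p under 0.05. A dimmer set of Dusp9, a dual-specificity phosphatase, did have one, at a difference of 0.43 (SE 0.16, limma adjusted p = 0.505) near the low end of the scale. Errfi1, an inhibitor of the EGF receptor, differed by 0.49 (SE 0.28) and Dusp14, of the same family as Dusp9, by -0.35 (SE 0.27). Among 16 further transcription factors and early genes listed as targets of ERK signaling, 10 had higher means and the median was 0.10. Junb, an AP-1 subunit, read 5.08, 4.82 and 5.31 in wild type, against 5.96, 6.56 and 5.75 in Brg1 cKO, higher by 1.02 (SE 0.26, adjusted p = 0.246). Ier3, an immediate-early gene, differed by 1.09 (SE 0.45, adjusted p = 0.582), with Brg1 cKO replicate 1 inside the wild-type range. Fosl1, another AP-1 subunit, differed by 0.14 (SE 0.23) by its brightest set, while its dimmer set read 2.49, 2.23 and 3.06 in wild type, against 4.13, 5.30 and 5.09 in Brg1 cKO. All Brg1 cKO values of that dimmer set were higher, by 2.24 on average (SE 0.36, limma adjusted p = 0.0566), from wild-type values at the low end of the scale. The offset of 16 reduced this difference to 1.03, and adjusted p ranged from 0.0223, without Brg1 cKO replicate 1, to 0.282. It was 0.0279 with an intensity trend and 0.0432 with array weights. Dimmer sets of Ccnd1, cyclin D1, at -0.86 (SE 0.31), of the serum response factor gene Srf at 0.64 (SE 0.22) and of the heparan sulfate enzyme gene Hs2st1 at 0.44 (SE 0.16) also had an unadjusted p under 0.05. These dimmer sets, Dusp9 included, were chosen after their values were seen.

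**Figure D4:**
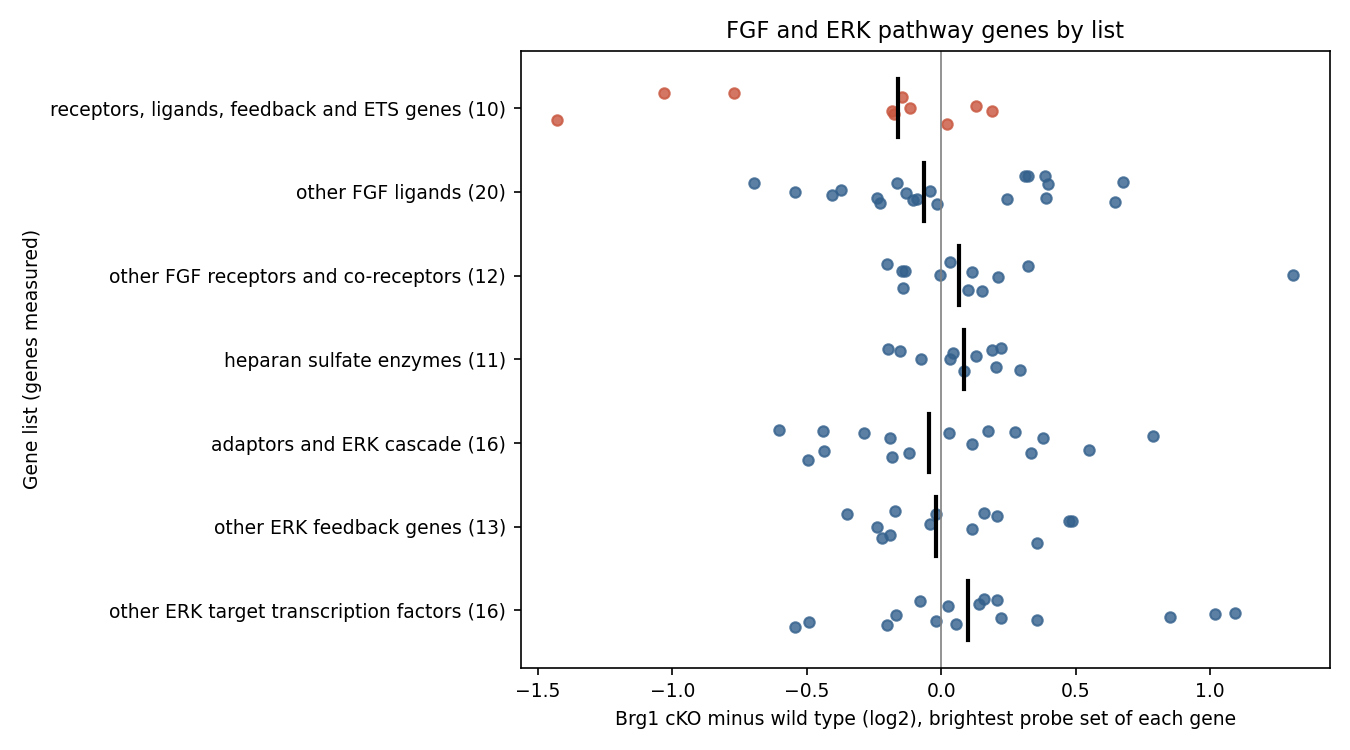
Difference between Brg1 cKO and wild type (log2, horizontal axis) of each gene by its brightest probe set, in 7 lists (vertical axis, with the number of genes measured), with 1 point per gene and a black bar at the median. Medians of the lists lie between -0.16 and 0.10, and single points beyond 1 are Fgfr3 and Fgf1 on the lower side and Fgfr4, Ier3 and Junb on the higher side.

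Genes whose values moved most like the Fgfr3 set 1421841_at were Tex101, Cdh16, Aldh1a1, Glycam1 and Mecr, with Pearson correlations of 0.991 to 0.996 over the 6 arrays among 12392 other genes. Aldh1a1, a retinaldehyde dehydrogenase, differed by -1.07, and the mucin-like gene Glycam1 by -2.68. For the Fgfr1 set 1425911_a_at, the member set with the smallest p among positive differences, the genes were Rab32, Dram1, Rab8b, Slc35f4 and Ptpn6, with correlations of 0.978 to 0.999. In all, 174 and 117 genes had a correlation above 0.9 with these sets. All genes were measured in the same 6 libraries, which fall into genotypes, and no p is given.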

How the data were processed

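The authors deposited linear intensities, 1 column per sample, made by RMA (robust multichip average: background adjustment, quantile normalization between arrays and summary per probe set) from Affymetrix mouse genome arrays after amplification of 50 ng of total RNA. The sources used here give no version of RMA. Values were converted to log2 here. RMA compresses differences of dim probe sets, and the table holds no detection calls, so values near the 25th percentile (log2 4.84) were read as the low end. Precision is limited by the number of arrays. Of 22690 rows, 64 control rows were left out. Genes came from the platform annotation, in which 20380 probe sets name 1 gene, 691 several and 1555 none; identifiers of the 10 members were found in RefSeq's gene table.

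Genotypes were compared over all probe sets with limma 3.58.1 (R 4.3.3), in a two-sided model without covariates, and Benjamini-Hochberg adjustment over 22626 probe sets, and the fit was tested on simulated data. For lists, a gene was represented by its brightest probe set. Named were all members, the genes of each pathway list past the threshold or else up to 2 with the smallest p, Smarca4, Smarca2, marker examples, and for 1 member set per direction the 5 genes with the most similar values. Members and lists were chosen with earlier results of these data known. The samples are separate eyeballs. The study's array methods call the controls littermates, but the labels do not give litters or whether any eyeballs came from the same pup. Alternatives were an intensity trend, renewed quantile normalization, an intensity filter, an offset of 16, array weights, a replicate block, leaving out each array, template matching and the mean of a gene's probe sets.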

Additional observations from a re-analysis of the deposited data

How the results depend on the processing

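Of 188 refits of single member probe sets, 174 kept the sign of the difference and the side of the threshold, 12 turned the sign and 2 passed the threshold, both for Fgfr3 (1421841_at), with array weights and without Brg1 cKO replicate 2. Member probe sets past the threshold numbered 1 with array weights, 4 by template matching, and 0 to 1 over the fits that left out 1 array. Member genes numbered 1, 3, and 0 to 1 in the same settings. Over all probe sets, 115 in the reported fit became 32 with the offset (18 higher, 14 lower), 190 with array weights (102 and 88), 820 by template matching, and 24 to 216 when 1 array was left out. Numbers without wild-type replicates 1 to 3 were 24, 26 and 36 and without Brg1 cKO replicates 1 to 3 they were 140, 216 and 53, with 114 of the 140 higher, and 103 of the 216. Among the pathway lists, Fgfr4 passed with array weights (1 further receptor). Template matching selected 1 gene each among further FGF family genes (Fgf3), receptors (Fgfr4), adaptors and kinases (Map2k1) and target factors (Junb).

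The 12 turned signs came from 4 member probe sets. Fgfr1 (1424050_s_at) was at 8e-04 without wild-type replicate 3 and 0.032 without Brg1 cKO replicate 1, in a range of -0.28 to 0.032 over single arrays left out. Fgf1 (1450869_at) was at 0.015 after renewed normalization, 0.011 with the offset, 0.07 without wild-type replicate 3, and 0.13 and 0.22 without Brg1 cKO replicates 1 and 3 (range -0.48 to 0.22). Etv5 (1450082_s_at) was at -0.0063 after renewed normalization, -0.27 without wild-type replicate 1, and -0.07 and -0.12 without Brg1 cKO replicates 1 and 3 (range -0.27 to 0.27). Etv5 (1420998_at) was at 0.028 without wild-type replicate 3 (range -0.38 to 0.028). The mean of both probe sets gave 0.10 for Fgfr1 and -0.10 for Etv5. The cause was not tested.

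With the replicate block, 45 probe sets passed (34 higher, 11 lower) and 0 member probe sets did. Replicate numbers are not labelled as pairs. Deviations of same-numbered samples from their group means correlated at 0.06, 0.08 and 0.13, and 0 samples correlated best with their own number. So few arrays cannot settle whether same-numbered samples were paired. With 3 arrays a group, signal near the low end limits Fgf2, the dim sets of Fgf1, Fgfr2, Fgfr3 and Spry2, and the Fgfr4 and Fosl1 sets.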
